A study of Mus musculus with 4 samples.

Results

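Proneural factors are the transcription factors that commit a dividing neural progenitor to becoming a neuron. The 8 genes described here, Neurog1, Neurog2, Atoh1, Atoh7, Neurod1, Neurod4, Olig2 and Insm1, were taken by name from a deposited expression table of 55426 rows, and each was found in 1 row. The table holds RNA sequencing (paired reads of poly(A) RNA) from mouse organoids at day 6, described as retinal, in 4 libraries. All came from 1 cell line, a Mettl3 KO line with an Rx:GFP reporter and a Dox-inducible HA-METTL3, so the untreated controls carry the knockout, the reporter and the inducible construct too. METTL3 is the enzyme that places N6-methyladenosine on RNA. The untreated group (2 libraries) received no Dox, and the Dox group (2 libraries) received doxycycline at 2 µg/ml for 6 days. Both groups grew in the same medium with the agent AGN, and the 4 libraries carry the same batch label. The labels do not say whether the line is 1 clone, which mouse strain it comes from, or what EV in the sample titles means, and they do not show that the replicates came from separate cultures, so the p-values measure the spread between these libraries only.

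Of the 8 factors, 7 are basic helix-loop-helix (bHLH) proteins, which bind the E-box CANNTG as dimers with a widely expressed E protein. Insm1 is a zinc-finger repressor that acts in newborn neurons and endocrine cells, and it was grouped with the others for its role, not its protein structure. In general, neurogenins act early in a progenitor, switch on Notch ligands and then the NeuroD genes, while Id proteins block E-protein dimers and Hes and Hey repressors keep the cell dividing. In the retina Atoh7 is required for ganglion cells, and Neurog2, Neurod1 and Neurod4 take part in ganglion, photoreceptor and amacrine cell formation. Atoh1 is best known from the hindbrain, spinal cord and inner ear, and Olig2 from motor neuron and oligodendrocyte precursors.

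The shared DNA-binding part of the 7 bHLH members is shown by the coding bases of 20 codons that begin in the basic region and run into the first helix, 5′ to 3′ on the coding strand, read from GENCODE M21 transcripts (GRCm38). Capitals mark the 24 of 60 bases that are the same in the 7 genes.
Neurog1: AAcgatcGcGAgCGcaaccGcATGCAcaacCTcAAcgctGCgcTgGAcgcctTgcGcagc
Neurog2: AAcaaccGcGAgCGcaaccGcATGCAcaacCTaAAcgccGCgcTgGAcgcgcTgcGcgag
Neurod1: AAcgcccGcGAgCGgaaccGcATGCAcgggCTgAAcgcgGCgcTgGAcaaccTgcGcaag
Neurod4: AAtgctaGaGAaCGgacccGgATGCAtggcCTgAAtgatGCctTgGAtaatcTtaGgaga
Olig2: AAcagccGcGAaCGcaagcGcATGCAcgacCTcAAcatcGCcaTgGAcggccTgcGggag
Atoh1: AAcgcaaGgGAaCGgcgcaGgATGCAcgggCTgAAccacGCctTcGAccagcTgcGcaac
Atoh7: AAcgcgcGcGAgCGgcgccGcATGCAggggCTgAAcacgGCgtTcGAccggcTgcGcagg
These stretches lie in coding exons, Neurog1 at chr13:56251579-56251638 (minus strand), Neurog2 at chr3:127634080-127634139 (plus strand), Neurod1 at chr2:79454660-79454719 (minus strand), Neurod4 at chr10:130271068-130271127 (minus strand), Olig2 at chr16:91226739-91226798 (plus strand), Atoh1 at chr6:64729806-64729865 (plus strand), Atoh7 at chr10:63100294-63100353 (plus strand). Pairwise identity over the 60 bases ranged from 51.7% (Neurog2 and Neurod4) to 85.0% (Neurog1 and Neurog2). In bases, Neurod1 shared 81.7% with Atoh7, 80.0% with Neurog2 and 65.0% with its namesake Neurod4. These percentages include bases that leave the amino acid unchanged, so they do not rank the likeness of the proteins, which was not measured. The 8 genes are short and simple, with 1 or 2 exons and transcripts of 1629 to 3345 nt. Only Neurod1 has exons that overlap another annotated gene, Cerkl on its own strand among them, and Cerkl was listed at 0.12 and 0.58 FPKM without Dox and at 0.22 and 0 FPKM with it.

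Values are FPKM, fragments scaled by transcript length and by sequencing depth, so levels of different genes can be compared per length. The fitted depth was 31700000 to 34400000 fragments per library, which makes 3 fragments worth 0.028 to 0.068 FPKM for these genes. Genes were tested with limma on log2(FPKM + 1) where the mean over the 4 libraries reached 1 FPKM, and fold changes on that scale understate the change of low genes. Mettl3 itself averaged 39.2 ± 1.66 FPKM in the untreated group against 45.8 ± 0.827 FPKM in the Dox group (limma adjusted p = 0.122, SD with n = 2 each), a difference that was not called. Both Dox libraries (45.2 and 46.37 FPKM) lay above both untreated ones (40.33 and 37.98 FPKM), as in 26.5% of tested genes. The unadjusted p of Mettl3 in limma was 0.0199. Neither these values nor the labels show whether HA-METTL3 was induced in the Dox libraries, so the comparison is one of Dox with no Dox. The untreated libraries lacked much of the eye-field marker list but not all of it. Pax6 was at 127.76 and 118.86 FPKM and Lhx2 at 26.72 and 24.3 FPKM, while Rax was at 1.12 and 0.82 FPKM, and Six6 at 0.01 FPKM in both, against 201.14 and 227.98 FPKM of Rax with Dox.

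With Dox, the bHLH members were low and Insm1 was not. Of the 5 members that reached 1 FPKM on average, 4 fell (Neurog1, Neurog2, Neurod1 and Olig2) and Insm1 rose, so that each of the 5 was called, where 9.31% of the 13931 tested genes were called, 4.87% lower and 4.44% higher. The 4 that fell passed the filter only through the untreated libraries and so had to differ, which means that their count shows nothing beyond their own values. The other 3 members, Atoh1, Atoh7 and Neurod4, were under the filter. In 6 of the 8 members both Dox libraries lay below both untreated ones, with the untested Atoh7 and Neurod4 among the 6. The same held for 4 of the 5 tested members and for 26.9% of all tested genes. Groups that did not overlap in either direction were found in 53.4% of tested genes. Each such separation has an exact two-sided permutation p of 0.333, the smallest that 2 libraries against 2 allow. In bulk organoids, fewer cells of a kind and less RNA per cell cannot be told apart.

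**Figure D1:**
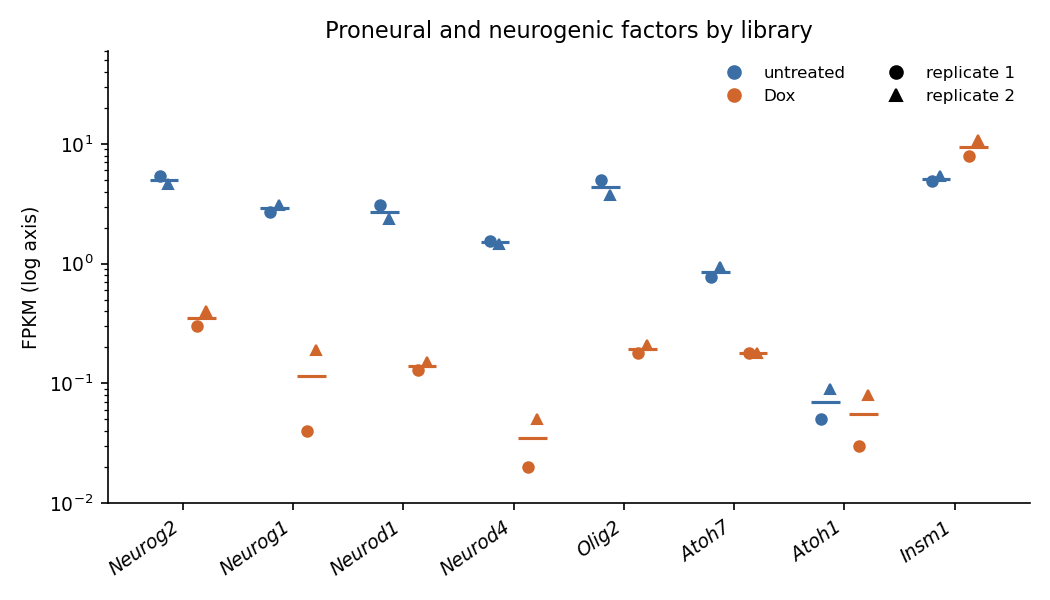
FPKM of each of the 8 factors on a log axis, one point per library (circle for replicate 1, triangle for replicate 2) and a line at each group mean. The Dox points lie below the untreated points for 6 genes, above them for Insm1, and interleave with them for Atoh1.

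The neurogenins, the early factors of the cascade, were low with Dox, and Neurog1 was near the bottom of the measured range. Neurog2 (ENSMUSG00000027967, chr3:127633135-127635631) measured 5.40 and 4.64 FPKM untreated, while with Dox it measured 0.30 and 0.40 FPKM. Its mean was 14.3-fold lower with Dox, and its log2 fold change was -2.15 (limma adjusted p = 6.8e-04, with an SE of 0.135). The lowest untreated library was thus far above the highest Dox library, and both Dox values, worth about 19 and 26 fragments, were still above 3 fragments. Neurog1 (ENSMUSG00000048904, chr13:56250478-56252163) was at 2.70 and 3.08 FPKM untreated and at 0.04 and 0.19 FPKM with Dox. Its mean was 25.1-fold lower (log2 fold change -1.80, SE 0.148, adjusted p = 0.00166 in limma). The Dox value of replicate 1 stands for about 2 fragments and that of replicate 2 for about 9, so the size of the fold is loose: the ratio of summed fragments was 24.7, with a 95% interval of 13.6 to 50.1 that covers counting error only. In the untreated libraries Neurog2 was above Neurog1 in both, and the same order held with Dox.

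The NeuroD genes, which act after the neurogenins in cells that are leaving the cycle, were low in both Dox libraries as well. Neurod1 (ENSMUSG00000034701, chr2:79452521-79456751) was at 3.08 and 2.37 FPKM untreated and at 0.13 and 0.15 FPKM with Dox. The mean was 19.5-fold lower, with a log2 fold change of -1.70 (limma adjusted p = 0.00239, with an SE of 0.154). Neurod4 (ENSMUSG00000048015, chr10:130268152-130280240), also known as Math3, was at 1.56 and 1.47 FPKM untreated and at 0.02 and 0.05 FPKM with Dox. Its Dox values correspond to about 2 and 5 fragments against 156 and 157 without Dox, a fragment ratio of 43.4 (95% counting interval 20.8 to 109.0). Its mean of 0.775 FPKM kept it out of the main comparison. In the fit without a filter on low values, Neurod4 was called lower (log2 fold change -1.28, SE 0.0642, adjusted p = 0.0173 in limma), where 2.71% of 27532 genes were called, 1.49% lower and 1.22% higher.

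Olig2 (ENSMUSG00000039830, chr16:91225457-91228677) was among the highest of the bHLH members without Dox. It stood at 4.97 and 3.74 FPKM untreated and at 0.18 and 0.21 FPKM with Dox. Its mean was 22.3-fold lower (log2 fold change -2.15, SE 0.159, adjusted p = 0.00111 in limma). The untreated replicates differed by more than the Dox replicates did, and the groups did not overlap. Its relatives Olig1 and Olig3, named after their values were seen, were under 0.3 FPKM in every library: Olig1 at 0.15 and 0.16 untreated and 0.02 and 0 with Dox, Olig3 at 0.22 and 0.27 untreated and 0.03 and 0.18 with Dox.

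Sox10 and Pdgfra, which Olig2-positive oligodendrocyte precursors also express, went in opposite directions. Sox10 fell from 13.1 ± 0.396 to 0.625 ± 0.276 FPKM (limma adjusted p = 2.69e-04, SD with n = 2 each), and Pdgfra rose from 1.10 ± 0.141 to 2.78 ± 0.0566 FPKM (adjusted p = 0.0141). Both genes are also known from other cells, Sox10 from neural crest. Of the 12 genes on the list of ventral neural tube and oligodendrocyte lineage markers, 4 were tested, 3 fell and 1 rose. The homeobox gene Dbx1 fell as well (log2 fold change -2.70). The 8 genes of the list under the filter were at most at 1.01 FPKM in any library. Nkx6-2 was at 0.99 and 1.01 FPKM untreated and at 0.24 and 0.17 FPKM with Dox, and Nkx6-1 at 0.42 and 0.43 against 0.1 and 0.07 FPKM, with groups that did not overlap. Shh, at 0.06 FPKM or less, and Gsx1, at 0 throughout, were near or at the bottom of the range.

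The atonal relatives differed from each other. Atoh7 (ENSMUSG00000036816, chr10:63099651-63101279), the ganglion cell factor, was at 0.77 and 0.94 FPKM untreated and at 0.18 FPKM in both Dox libraries. That is about 34 and 45 fragments against 8 and 8. Under the filter in the main comparison, it was called lower without the filter, narrowly (log2 fold change -0.65, SE 0.0705, adjusted p = 0.0492 in limma). Atoh1 (ENSMUSG00000073043, chr6:64729125-64731245) was at 0.05 and 0.09 FPKM untreated and at 0.03 and 0.08 FPKM with Dox. These values stand for 3, 6, 2 and 5 fragments, the groups overlapped, and a difference was not detectable at this depth (adjusted p = 0.817 in limma without the filter, 95% counting interval of the untreated to Dox ratio 0.414 to 3.94).

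Insm1 (ENSMUSG00000068154, chr2:146221921-146225020) was the exception in direction. It was at 4.88 and 5.37 FPKM untreated and at 7.94 and 10.75 FPKM with Dox, with about 449 and 530 against 720 and 1009 fragments. Both Dox libraries lay above both untreated ones, as in 26.5% of tested genes, and Dox replicate 2 stood well above Dox replicate 1. The mean was 1.82-fold higher with Dox, 5.12 ± 0.346 against 9.35 ± 1.99 FPKM (SD, n = 2 each), and the log2 fold change was 0.74 (limma adjusted p = 0.0419, with an SE of 0.153). That call was close to the threshold: it was lost without untreated replicate 1 (adjusted p = 0.193), without untreated replicate 2 (0.14), without Dox replicate 2 (0.139), without a filter (0.162) and without the variance trend (0.0519). With Insm1 at 0.904 and 1.16 times the FPKM of Neurog2 in the untreated libraries, the ratio was 26.5 and 26.9 in the Dox libraries.

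**Figure D2:**
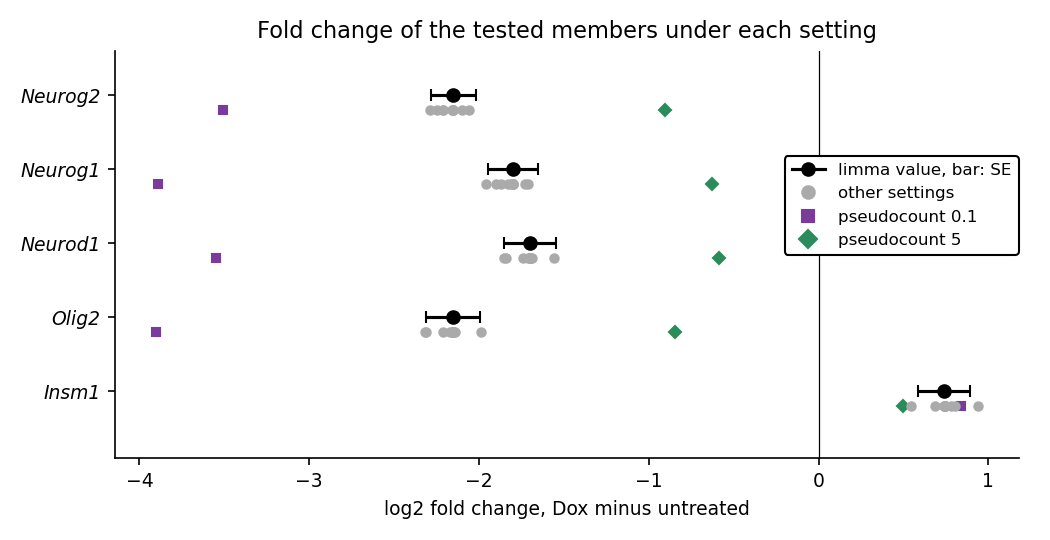
Log2 fold change (Dox minus untreated) of the 5 tested members, with limma's standard error as a bar, and below each value those of the other settings. The pseudocount moves the values of the 4 low genes most, from -3.89 to -0.63 for Neurog1, and no setting moves a value across 0.

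The makeup of the set therefore changed. Without Dox the 7 bHLH members summed to 18.5 and 16.3 FPKM, and with Dox to 0.88 and 1.26 FPKM, a ratio of 16.3 between the group sums. Neurog2 held 23.1% and 21.4% of the 8 genes' summed FPKM without Dox, Olig2 21.2% and 17.2%, and Insm1 20.8% and 24.7%. With Dox, Insm1 held 90.0% and 89.5%, and Neurog2 came next with 3.40% and 3.33%. In order of level without Dox, Insm1, Neurog2 and Olig2 overlapped with their neighbours. Neurog1 and Neurod1 followed and overlapped with each other, and then came Neurod4, Atoh7 and Atoh1, each separate from the one above. With Dox, Insm1 and then Neurog2 stood apart at the top, Olig2 overlapped with Atoh7, and the order of Neurod1, Neurog1, Atoh1 and Neurod4 was within the spread of the libraries from one neighbour to the next.

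**Figure D3:**
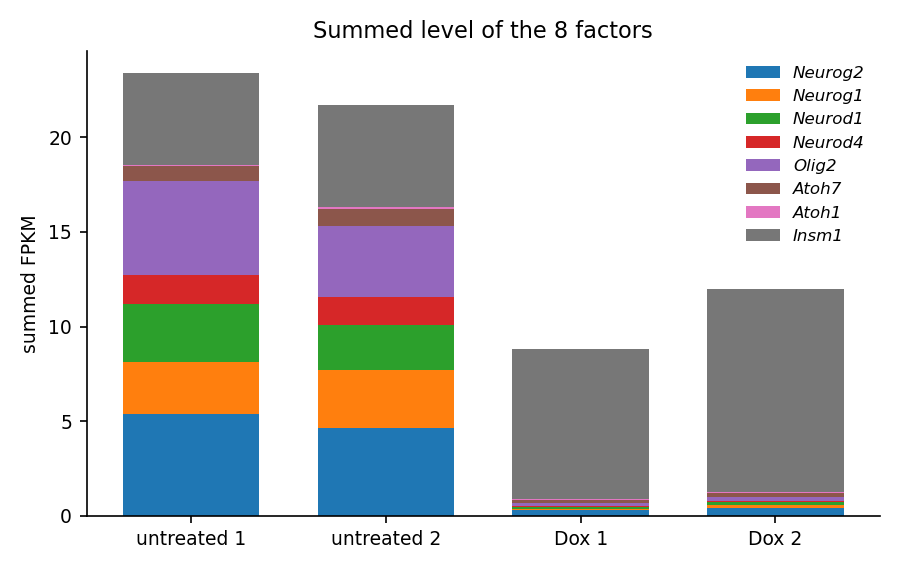
Stacked FPKM of the 8 factors in each library, on an axis that starts at 0. Insm1 (grey) made up 20.8% and 24.7% of the bar without Dox and 90.0% and 89.5% with it.

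Other neural bHLH factors were compared next, to see whether the low values reached beyond the 8 genes. Of 16 such genes, 6 were tested, 4 fell, 1 rose and 1 was not called, with a median log2 fold change of -1.35 against -0.0042 over all tested genes. That median depends on the settings: it was -0.21 without the filter, where genes near 0 enter, and -2.53 with a pseudocount of 0.1. Nhlh1 and Nhlh2, which mark newly formed neurons, fell from 3.41 ± 0.262 to 0.120 ± 0.0283 FPKM and from 2.56 ± 0.205 to 0.120 ± 0.0283 FPKM (limma adjusted p = 8.54e-04 and 0.00162, SD with n = 2 each). Tal2, a factor of midbrain and diencephalic inhibitory neurons, fell from 1.75 ± 0.099 to 0.29 FPKM in both Dox libraries (adjusted p = 0.00712).

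Atoh8, a distant atonal relative, ran the other way. It was at 1.5 and 1.59 FPKM untreated and at 5.66 and 6.54 FPKM with Dox (log2 fold change 1.48, SE 0.121, adjusted p = 0.00162 in limma). Bhlhe22 was at 1.55 ± 0.177 FPKM untreated and 0.965 ± 0.00707 FPKM with Dox and was not called (adjusted p = 0.166). Its unadjusted p in limma was 0.0334. Neurog3, Neurod2 and Neurod6, factors of endocrine cells and of later cortical neurons, were listed at 0 in the 4 libraries.

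The E proteins, with which the proneural factors pair, were abundant, and limma called 0 of 3, with 2 of 3 at an unadjusted p below 0.05, both higher. Tcf3 was at 112.53 and 100.63 FPKM untreated and at 113.66 and 126.47 FPKM with Dox (adjusted p = 0.328 in limma). Tcf12 was at 60.06 and 59.44 FPKM untreated and at 69.64 and 75.71 FPKM with Dox (adjusted p = 0.0766), and Tcf4 at 18.79 and 19.32 against 21.99 and 25.11 FPKM (adjusted p = 0.123). In each of the 3 genes both Dox values were above both untreated ones, with a median log2 fold change of 0.28. Each E protein gene thus exceeded the summed FPKM of the 7 bHLH members, in the Dox libraries by the wider margin.

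The antagonists of proneural factors split. Of 12 genes on the list of Id, Hes and Hey antagonists, 10 were tested, 4 rose, 4 fell and 2 were not called (median log2 fold change -0.13). Among the Id genes, whose products sequester E proteins, Id1 went from 39.09 and 36.41 to 215.00 and 237.46 FPKM (log2 fold change 2.55, SE 0.0798, adjusted p = 8.27e-05 in limma). Id2 went from 42.47 and 42.44 to 188.11 and 193.55 FPKM (log2 fold change 2.14, adjusted p = 6.96e-05). Id3, the highest of the 4 at 285 FPKM without Dox, rose with a log2 fold change of 0.60 (adjusted p = 0.00697). Id4 fell instead, from 21.14 and 23.89 to 4.25 and 3.44 FPKM (log2 fold change -2.28, adjusted p = 3.93e-04).

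The Hes genes, repressors of proneural genes downstream of Notch, were divided as well. Hes1 rose from 35.99 and 31.08 to 81.23 and 92.10 FPKM (log2 fold change 1.34, adjusted p = 0.00123 in limma). Hes5, the Hes gene that follows Notch activity most closely in neural progenitors, fell from 23.9 ± 3.08 to 9.93 ± 0.431 FPKM (limma adjusted p = 0.00252, SD with n = 2 each). Hes3 fell from 5.75 ± 0.679 to 0.190 ± 0.113 FPKM (adjusted p = 5.54e-04), and Hey1 from 15.2 ± 0.247 to 7.01 ± 0.0424 FPKM (adjusted p = 0.00162). Bhlhe40 and Bhlhe41 were not called (adjusted p = 0.113 and 0.415), though the unadjusted p of Bhlhe40 in limma was 0.0172, with Dox the lower group. The genes that rose were thus Id1, Id2, Id3 and Hes1, and no direction holds for the list as a whole: its median was 0.03 once untreated replicate 1 was removed, and 0.01 once Dox replicate 1 was.

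**Figure D4:**
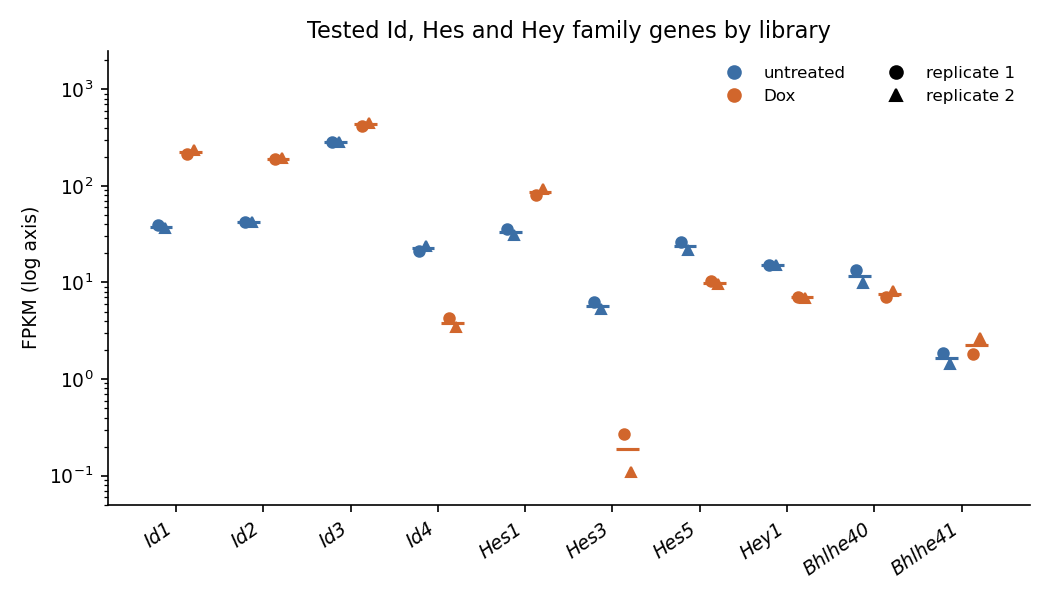
FPKM on a log axis of the 10 tested genes of the Id, Hes, Hey and Bhlhe40/41 group, one point per library, lines at group means. Id1, Id2, Id3 and Hes1 stand higher with Dox, and Id4, Hes3, Hes5 and Hey1 lower.

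Genes described as acting downstream of proneural factors were low with Dox in the larger part of the list. With the members left out, 14 of 21 were tested, 9 fell, 0 rose and 5 were not called, with a median log2 fold change of -0.83. Among the members left out was Insm1, which rose. With the members kept, 16 of 24 were tested, 10 fell, 1 rose and 5 were not called. At an unadjusted p below 0.05 in limma were 14 of these 16, 1 higher and 13 lower. Gadd45g, a cell-cycle regulator of newborn neurons, went from 15.61 and 13.68 to 2.34 and 2.52 FPKM (log2 fold change -2.19, SE 0.109, adjusted p = 3.18e-04 in limma). Nhlh1 and Nhlh2, given above, are on this list too. The Notch ligands Dll1 (-1.62) and Dll3 (-1.26) and the Notch modifier Mfng (-1.84) fell too, with adjusted p-values of 3.67e-04, 0.00329 and 5.35e-04. Of the 5 that were not called, Rnd2, a small GTPase of migrating neurons, was at 31.7 ± 0.849 FPKM untreated and 23.9 ± 2.30 FPKM with Dox (limma adjusted p = 0.0551, SD with n = 2 each). Cdc25b was at 17.5 ± 0.771 and 13.8 ± 1.07 FPKM (adjusted p = 0.0963), and Cbfa2t2 at 10.4 ± 0.707 and 9.07 ± 0.629 FPKM (adjusted p = 0.335). The list was written with earlier results of these data known, so it is not independent evidence of direction, and 5 genes fell at a minimum mean of 5 FPKM, where fewer are tested.

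Early neuron markers were lower with Dox in each of the 12 tested of 15 genes, with a median log2 fold change of -1.24. Gap43, a growth cone protein, went from 38.66 and 42.18 to 9.28 and 6.94 FPKM (log2 fold change -2.20, adjusted p = 6.88e-04 in limma). Stmn2 went from 11.47 and 10.55 to 2.27 and 2.29 FPKM (-1.87, adjusted p = 4.15e-04) and Elavl4, an RNA-binding protein of neurons, from 5.94 and 4.94 to 1.11 and 0.78 FPKM (-1.73, adjusted p = 0.00206). Map2 (-1.70) and Nrn1 (-1.36) fell as well. The summed FPKM of the 15 markers was 253.7 to 254.1 untreated and 118.0 to 118.4 with Dox. Tubb3, a neuronal tubulin, made up 118.53 and 116.78 FPKM of the untreated sums and was among the least changed (log2 fold change -0.59). The part of neuron number in the members' values was not tested.

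**Figure D5:**
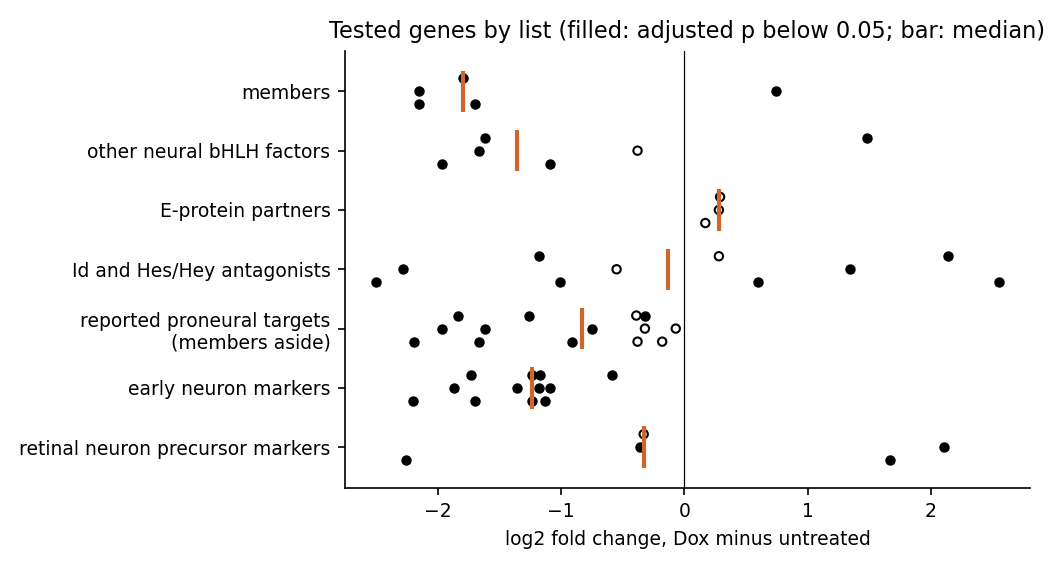
Log2 fold change (Dox minus untreated) of the tested genes of 7 lists, filled where the adjusted p is below 0.05 and open where it is not, with a bar at each list's median. The early neuron markers lie wholly below 0, while the Id, Hes and Hey group is spread on both sides of it.

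Markers of retinal neuron precursors did not move together. Of 15, 5 were tested, 2 rose, 2 fell and 1 was not called (median log2 fold change -0.33). The photoreceptor precursor gene Crx rose from 0.57 and 0.50 to 5.22 and 6.09 FPKM (log2 fold change 2.11, adjusted p = 6.43e-04 in limma), and Thrb, the thyroid hormone receptor known from cones, from 0.355 ± 0.134 to 3.30 ± 0.481 FPKM (limma adjusted p = 0.00259, SD with n = 2 each). Pou4f1, a factor of ganglion cells and of sensory and midbrain neurons, fell from 9.64 and 9.27 to 1.30 and 1.06 FPKM (-2.26, adjusted p = 3.37e-04). Otx2, at 173.12 and 172.52 FPKM untreated, fell to 137.05 and 131.35 FPKM (-0.36, adjusted p = 0.0254). Pou4f2, the ganglion cell gene downstream of Atoh7, was at or below 0.05 FPKM in every library, and Isl1 was at 0.85 to 1.07 FPKM and under the filter.

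Markers of brain regions and of the eye field moved with the members' values, and their part in them was not tested. Of 21 dorsal forebrain, diencephalon, midbrain and hindbrain markers, 12 were tested, 10 fell, 1 rose and 1 was not called. Their summed FPKM was 306.3 to 315.1 untreated and 65.89 to 70.99 with Dox, with Hoxb1 at 0 throughout. The diencephalic factors Barhl1 and Barhl2, averaging 4.98 ± 0.990 and 5.81 ± 1.05 FPKM untreated, against 0.0850 ± 0.00707 and 0.130 ± 0.0566 FPKM in the Dox group (SD, n = 2 each), were as low with Dox as the proneural genes. Of 12 eye-field and retinal progenitor markers, 11 were tested and 10 rose. Pax6 was not called, and the summed FPKM was 166.9 to 180.5 untreated and 1083 to 1274 with Dox.

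Lists for other cells that the organoids could hold differed from each other. Of 12 placode and sensory neuron markers 6 were tested, 2 fell (Pax3 and Pou4f1), 1 rose (Foxi3, log2 fold change 1.72) and 3 were not called, with summed FPKM of 24.27 to 26.13 untreated and 14.75 to 16.82 with Dox. All 6 were at an unadjusted p below 0.05 in limma, 3 higher and 3 lower. Of the 5 tested surface epithelium markers limma called 0, with 1 at an unadjusted p below 0.05, and their list summed to 53.65 to 58.77 FPKM untreated and 55.51 to 62.7 FPKM with Dox, with Krt8 the highest. Of 8 pluripotency markers 1 fell, Klf4 (log2 fold change -0.71, adjusted p = 0.0348 in limma), and the list summed to 71.45 to 75.23 FPKM untreated and 55.6 to 81.79 FPKM with Dox. At an unadjusted p below 0.05 were 3 of these 8, 1 higher and 2 lower.

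Promoter sequence was then examined for features shared by the members, using RefSeq windows (GRCm38.p6) of the 250 bases before the start, with 7 of the 8 genes matched and Insm1 not. The E-box CANNTG, which reads the same way on both strands as a pattern, was present in the windows of 2 of the 7 genes, Atoh7 with 3 and Neurod1 with 1, against 66.2% of all 32851 windows. The Atoh7 window holds CAGATG, a word found with its reverse complement CATCTG in 14.4% of windows, and 2 copies of CACCTG in a row. These 2 copies, in capitals, lie at chr10:63099718-63099733 (plus strand), within the exon of the longer transcript as GENCODE draws it.
Atoh7: CACCTGccacCACCTG
The word TATAA was searched on the gene's strand after these windows had been read, so it was chosen on the sequences. It occurred in 4 of the 7 windows, against 16% of all windows, and within 40 bases of the start in the same 4, against 4.2%. The sites of these 4 genes are shown with TATAA in capitals.
Neurog2: ttcttggtggtaTATAAggggttttaagg
Neurod1: gcaactcggctaTATAAccctagcgcccg
Atoh7: tgagccctgggcTATAAattctcctccct
Olig2: cctccacccagcTATAAaaa
They lie at Neurog2 at chr3:127633097-127633125 (plus strand), Neurod1 at chr2:79456649-79456677 (minus strand), Atoh7 at chr10:63099743-63099771 (plus strand), Olig2 at chr16:91225530-91225549 (plus strand), and TATAA began 27 bases before the RefSeq start in Neurog2, 29 in Neurod1, 30 in Atoh7 and 8 in Olig2. GENCODE starts the transcripts of Neurod1, Atoh7 and Olig2 farther upstream, so that by its models these 3 sites lie inside the first exon, and the Neurog2 site alone lies before the start. Neurog1 and Neurod4, whose Dox values were as low, had neither an E-box nor TATAA in the window, and the same was true of Atoh1. These are matches of letters and not evidence of a bound site, and the regulatory elements of these genes outside the window were not examined.

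The genes most like a member in profile were found by the root mean square difference of log2(FPKM + 1) over the 4 libraries, each gene centred on its mean. For Insm1, the member with the highest mean, they were Nrip1 (0.0447), Nmrk1 (0.0495), Mfrp (0.0547), Cfap97d2 (0.0552) and Ulk3 (0.0570). Nrip1 was at 12.72 and 12.99 FPKM untreated and 18.16 and 25.18 FPKM with Dox. It was not called (limma adjusted p = 0.0536). Its excess of Dox replicate 2 over replicate 1, which Insm1 shares, follows from how it was picked. For Neurog2, a comparison added after the values were seen, they were Gadd45g (0.0196), Chst1 (0.0417), Fzd10 (0.0534), Olig2 (0.0588) and Cx3cl1 (0.0698). The likeness holds on the log2(FPKM + 1) scale only: Gadd45g had a fold of 6.03 in FPKM, where Neurog2 had 14.3.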

How the data were processed

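Poly(A) RNA of 4 organoid libraries was measured. The authors deposited FPKM values, one column per library, rounded to 2 decimals. The submitters' processing notes name STAR, Cuffdiff and the build mm10 without versions or roles. Counting strand and annotation release are not given in the sources used here. Columns were matched to samples by library name and grouped by treatment label.

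FPKM is not a count, so log2(FPKM + 1) was tested with limma 3.58.1 (R 4.3.3, intensity trend, no covariate) on the 13931 genes that averaged 1 FPKM or more, two-sided, with Benjamini-Hochberg adjustment over these genes and a threshold of 0.05. The members and gene lists were chosen with earlier results of these data known. Named besides the members were, per list, up to 6 called genes with the largest fold change and up to 3 uncalled genes with the highest mean. Genes such as Olig1, Olig3, Shh, Nkx6-1, Nkx6-2, Tubb3, Lhx2, Pou4f2 and Isl1 were added after their values were seen.

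Depth was fitted from single-transcript genes of 450 to 1200 nt below 0.25 FPKM (Python 3.11.15, numpy 2.4.6). Between 94.9% and 96.4% of these values came out within 0.25 of a whole fragment, against 48.9% to 49.5% with lengths shuffled. Fragments quoted for a gene are estimates from this fit. Counting intervals are exact Clopper-Pearson, at 95%, on the summed fragments of each group. In simulated data for Dox against untreated (13931 genes, 200 changed), limma recovered 90% of 4-fold and 72% of 2-fold changes, and 2.41% of calls were false. Positions are from GENCODE M21 (GRCm38, the mm10 build) and promoters from RefSeq. Protein sequences were not used here. Tried as 14 alternatives were pseudocount, filter, scaling, variance model, replicate block and each library left out. Some genes of the lists are counted but not reported here by name.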

Additional observations from a re-analysis of the deposited data

How the results depend on the processing

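Neurog1, Neurog2, Neurod1 and Olig2 kept their direction and their call in the 13 alternatives that tested them, with adjusted p-values in limma of at most 0.0252, 0.022, 0.0321 and 0.0279. Leaving out each library in turn, which assumes that the lone library of a group varies like the other group, gave log2 fold changes of -1.90 to -1.71, -2.25 to -2.06, -1.84 to -1.56 and -2.32 to -1.99. For Insm1 these fits gave 0.55 to 0.94, and the call was lost in 3 of the 4. It was also lost without a filter (0.74, adjusted p = 0.162) and without the variance trend (0.74, adjusted p = 0.0519), so that 0 members were called higher in those 2 settings, and 0 to 1 with a library left out. Its unadjusted p in those 2 settings was 0.0152 and 0.00486, so 1 member was higher at an unadjusted p below 0.05. With a minimum of 5 FPKM 0 members were called lower, since only Insm1 was tested.

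The pseudocount moved the size of the fold changes by construction, from -3.51 with 0.1 to -0.90 with 5 for Neurog2. The median of the Id, Hes and Hey list, near 0, ranged from -0.301 to 0.0333 with a library left out. It was positive with untreated replicate 1 removed (0.0333), with Dox replicate 1 removed (0.00578) and at a minimum of 5 FPKM (0.0271). The cause was not tested. Over all genes, 619 were called higher and 678 lower, against 336 and 409 without a filter, 408 and 413 with a minimum of 5 FPKM, and 262 to 320 and 331 to 377 with a library left out. Fewer genes enter at a minimum of 5 FPKM (10342) and more without a filter (27532). Under TPM scaling the median over all genes was 0.0165, the value farthest from 0.

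In the fit with a replicate block, 4 members were called lower and 1 higher, as without it, among 532 genes higher and 602 lower. The numbers do not pair the libraries: over 13931 genes the differences between replicates correlated at -0.0435 between groups. Depth limits Atoh1, with 2 to 6 fragments per library, and the Dox values of Neurog1 and Neurod4.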
